A study of Mus musculus with 17 samples.

Results

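The Myc and Mxd transcription factor network was followed on Affymetrix mouse expression arrays of leukemias made with Myc and Bcl2. Its members were the genes Myc, Mycn, Mycl, Max, Mxd1, Mxi1, Mxd3, Mxd4, Mnt and Mga, chosen by name. A probe set, the group of probes that reads out 1 transcript, was taken when the platform annotation gave it exactly 1 of these symbols. This found 24 probe sets for 9 of the 10 genes, among 45037 probe sets without controls. No probe set carried the symbol Max alone, so Max was not analysed here. Each gene is led by its probe set with the highest mean over the 17 arrays. Levels are log2 RMA values, the authors' summary per probe set, and a difference of 1 is a 2-fold change.

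The 17 arrays fall into 5 groups, and all cells were of C57/Bl6 origin with a genotype labelled wildtype. The leukemias had grown in irradiated recipient mice of 4 to 8 weeks. They began from transformed DN2 cells (early T-cell progenitors of the thymus, double negative for CD4 and CD8, 5 arrays), LSK cells (marrow cells that lack lineage markers and carry Sca1 and c-kit, 3 arrays) or GMP (granulocyte-macrophage progenitors of the marrow, 5 arrays). Per the labels, the leukemia arrays hold spleen cells sorted as CD11b+Gr1+ and negative for CD3, CD4 and CD8. The untransformed cells of origin were DN2 cells from healthy thymus (2 arrays) and GMP from healthy marrow (2 arrays), and no healthy LSK cells were analysed here. The labels name the transforming pair Myc/Bcl2 and say neither which Myc family gene was delivered nor which promoter drove it. Nothing says that the replicates of a group came from separate mice, so each p-value measures the spread between these samples only.

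Myc, N-Myc (Mycn) and L-Myc (Mycl) are activators that bind DNA as dimers with Max, at sites called E-boxes, and drive growth, ribosome production and the cell cycle. The Mxd proteins (Mxd1, Mxi1, Mxd3, Mxd4), Mnt and Mga also dimerise with Max at E-boxes. Mxd proteins and Mnt bring Sin3 corepressors with histone deacetylases, and Mga works in a Polycomb complex, so these members oppose Myc at shared sites. In blood cells Myc is high in dividing progenitors, and Mxd1 is known to be switched on as granulocytes mature.

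Array medians lay between 3.80 and 3.86, and signals near that level are close to background, where differences are compressed. Testing was limited to probe sets with at least 1 group mean above 3.83, the median of the whole table. This left 26746 probe sets, among them 19 of the 24 members. Some arrays stood apart from the rest. The LSK leukemia arrays 2 and 3 had low Bcl2, at 6.75 and 5.27, against 11.30 on LSK array 1. All 5 DN2 leukemia arrays carried NK-cell genes (5 genes), with a list mean of 9.01 to 11.27, against 5.78 to 7.62 in LSK leukemia, 3.13 to 3.41 in GMP leukemia and 4.72 in healthy DN2 cells. Their T-cell genes (5 genes) averaged 7.78 to 8.07, against 4.21 to 4.87 in LSK leukemia, 4.54 to 4.77 in GMP leukemia and 5.64 to 5.66 in healthy DN2 cells. Of these, the Cd3 genes were high, and Cd4 and Cd8a averaged 3.54 and 3.98 in DN2 leukemia, near background. B-cell genes (3 genes) averaged 7.13 to 7.53 in LSK leukemia and 3.37 to 5.86 in DN2 leukemia. The part of these cell-type genes in the differences of the network was not tested. The mean of 7 late neutrophil genes in DN2 leukemia was 3.72 to 4.40, against 10.68 to 12.95 in LSK and 11.42 to 12.73 in GMP leukemia. Itgam, which encodes the CD11b of the sort, read 7.17, 3.47, 7.38, 3.24 and 3.42 in DN2 leukemia, so the label of myeloid cells was not borne out on 3 of these 5 arrays by Itgam, nor on any by late neutrophil genes. The GMP leukemia arrays 2 and 4 had primary granule genes (5 genes) at 12.67 and 12.66, against 8.59 to 9.66 on the other 3 arrays. In sorted bulk RNA, fewer cells of a type and less RNA per cell cannot be told apart.

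Promoter sequences, each 250 bases before to 50 after a transcription start, were available from RefSeq (GRCm38.p6) for 9 of the 10 members. No sequence was available for Myc. The first 2 below belong to antagonists whose window holds CACGTG, the E-box shared by Myc and its antagonists. The next belongs to Mycn, whose lead probe set differed most between leukemia and healthy cells, and the last to Mxd1, the antagonist with the largest difference. Capitals mark CACGTG or TTTNNCGC, an E2F-like motif, both searched on either strand, with overlapping matches counted. Both motifs were chosen after the sequences had been seen. Mxd4 lies at chr5:34187661-34187960 on the minus strand, Mnt at chr11:74830674-74830973 on the plus strand, Mycn at chr12:12941787-12942086 on the minus strand and Mxd1 at chr6:86669110-86669409 on the minus strand.
Mxd4: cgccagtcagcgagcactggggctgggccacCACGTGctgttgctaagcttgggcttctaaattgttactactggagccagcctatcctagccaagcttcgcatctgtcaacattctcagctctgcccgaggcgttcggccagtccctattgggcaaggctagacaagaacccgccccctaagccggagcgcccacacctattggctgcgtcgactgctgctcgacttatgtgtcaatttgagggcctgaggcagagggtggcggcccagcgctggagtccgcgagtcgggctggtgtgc
Mnt: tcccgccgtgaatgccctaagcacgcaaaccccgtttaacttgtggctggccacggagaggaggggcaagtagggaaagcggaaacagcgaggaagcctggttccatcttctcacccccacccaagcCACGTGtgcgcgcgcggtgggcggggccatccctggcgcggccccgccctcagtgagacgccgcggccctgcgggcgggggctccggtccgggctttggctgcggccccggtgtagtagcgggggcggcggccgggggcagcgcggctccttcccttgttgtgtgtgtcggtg
Mycn: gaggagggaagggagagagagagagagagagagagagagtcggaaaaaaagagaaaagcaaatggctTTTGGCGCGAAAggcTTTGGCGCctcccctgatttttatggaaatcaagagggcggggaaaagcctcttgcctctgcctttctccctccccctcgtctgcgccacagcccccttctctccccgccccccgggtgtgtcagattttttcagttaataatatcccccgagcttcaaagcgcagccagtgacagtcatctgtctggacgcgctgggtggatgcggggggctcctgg
Mxd1: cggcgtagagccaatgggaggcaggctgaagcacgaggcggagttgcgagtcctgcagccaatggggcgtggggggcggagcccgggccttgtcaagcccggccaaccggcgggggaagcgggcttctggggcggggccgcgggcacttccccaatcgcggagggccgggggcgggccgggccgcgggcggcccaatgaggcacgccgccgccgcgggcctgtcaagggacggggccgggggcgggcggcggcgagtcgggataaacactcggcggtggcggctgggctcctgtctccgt
CACGTG began 219 bases before the start in Mxd4, 123 bases before it in Mnt and 3 bases before it in Max. It was found in 3 of the 9 member genes with a sequence, which have 11 promoters, and in 7.15% of all 32851 promoters of the same length. The first share is per gene and the second per promoter, so they are not alike. TTTNNCGC had 3 overlapping or neighbouring matches in Mycn and none in the other members with a sequence, and was in 5.17% of all promoters. Neither motif was searched in Myc. These matches describe letters in a window and no factor was measured on them.

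**Figure D1:**
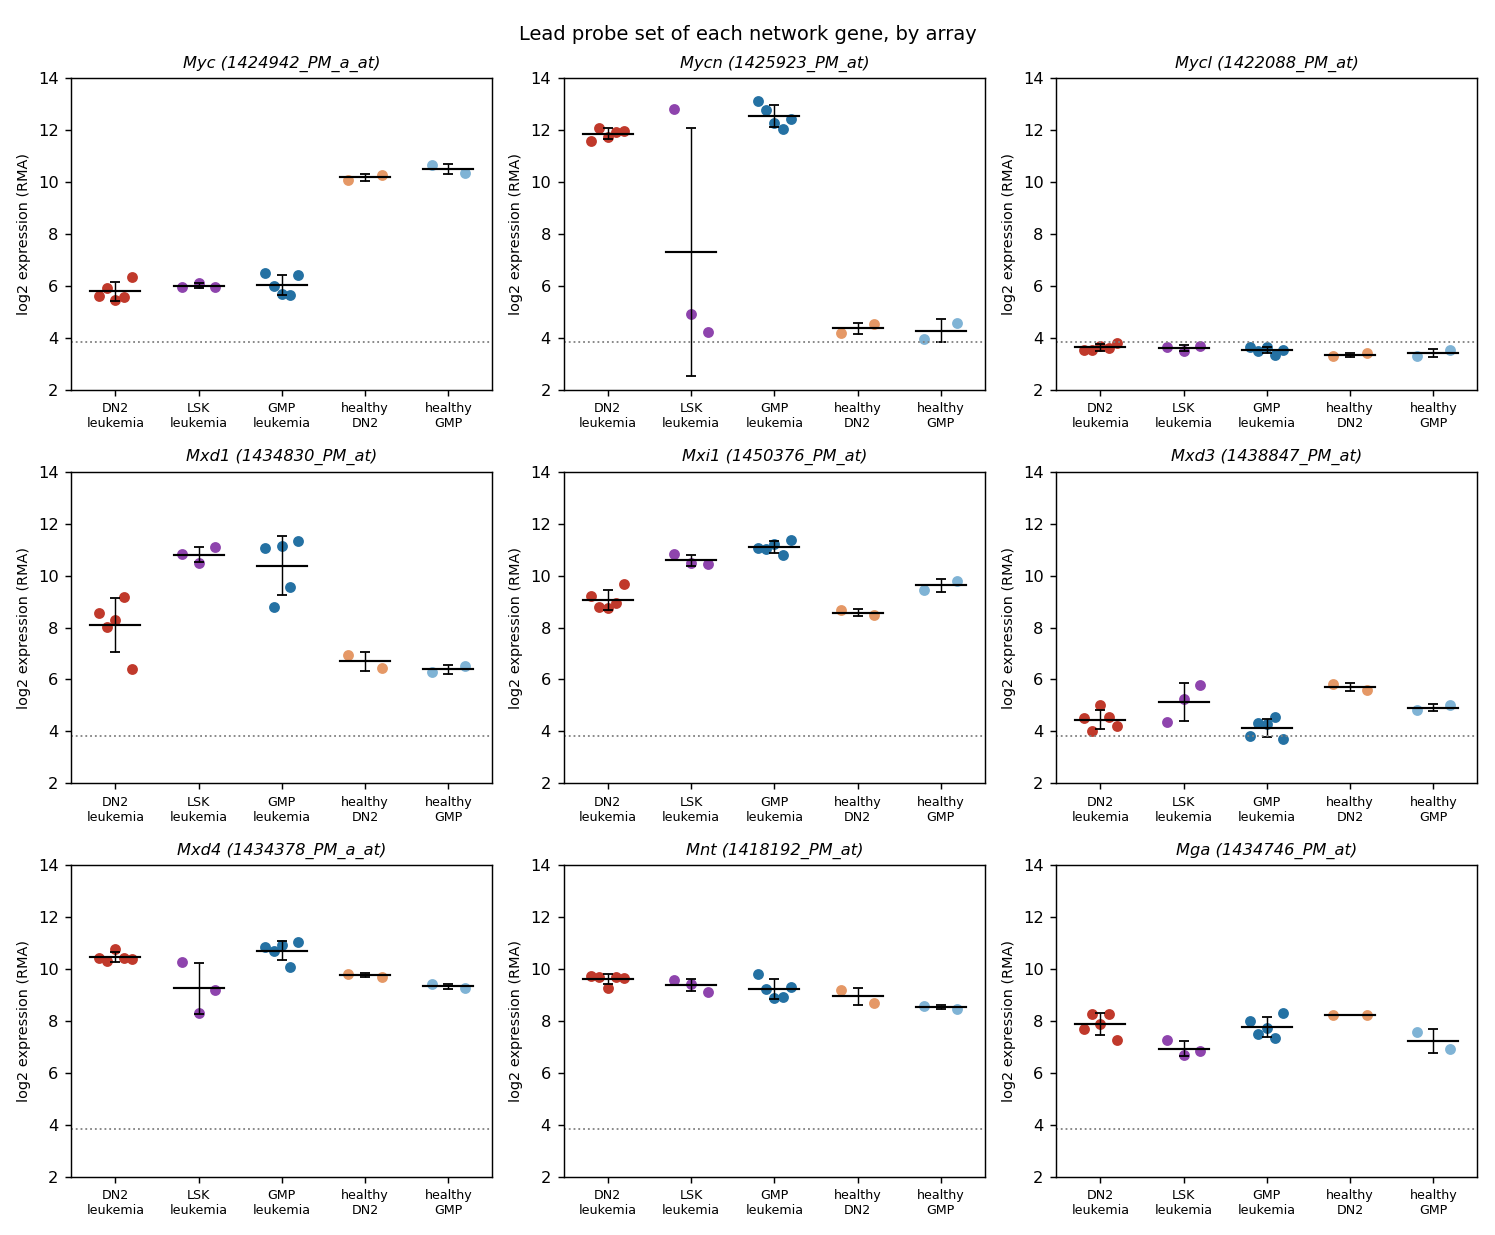
Lead probe set of each of the 9 measured network genes on every array, as log2 RMA expression on the y axis and the 5 groups on the x axis (points are arrays, bars are group means with SD, the dotted line is the median of all values, 3.83). Myc is between 5.48 and 6.49 on all 13 leukemia arrays and above 10 on all healthy ones, while Mycn is low on 2 of 3 LSK leukemia arrays.

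Among the activators, Myc fell in leukemia, the lead probe set of Mycn rose while the direction of Mycn depended on the probe set, and Mycl stayed at background. The lead Mycn probe set (1425923_PM_at) read 11.58, 12.10, 11.76, 11.94 and 11.99 in DN2 leukemia and 13.15, 12.79, 12.28, 12.06 and 12.45 in GMP leukemia, against 4.21 and 4.52 in healthy DN2 cells and 3.96 and 4.58 in healthy GMP. It rose in both leukemias, by 7.51 ± 1.50 (SE) in DN2 (limma, adjusted p = 0.00247) and by 8.28 ± 1.50 in GMP (adjusted p = 0.0020), with no overlap in either pair. The error of both came largely from the LSK leukemias, at 12.82, 4.91 and 4.22, since all groups share 1 spread in the fit. Leaving out LSK arrays 2 and 3, the same differences had standard errors of 0.27. Those arrays held the low LSK values of this probe set, so the smaller error follows from leaving them out. Over the alternatives the adjusted p was 2.2e-10 to 0.0405 in DN2 and 2.3e-10 to 0.0423 in GMP (limma).

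The single Myc probe set (1424942_PM_a_at) read 5.62, 5.93, 5.48, 5.58 and 6.35 in DN2 leukemia, 5.98, 6.13 and 5.95 in LSK leukemia and 6.49, 5.99, 5.68, 5.64 and 6.41 in GMP leukemia. Healthy DN2 cells read 10.10 and 10.28, and healthy GMP 10.65 and 10.37. Myc thus fell in both leukemias against their cells of origin, with adjusted p = 1.5e-08 in DN2 and 3.3e-08 in GMP, and no array overlapped. The interaction, which is the DN2 difference minus the GMP difference, was 0.07 ± 0.37 for Myc, with a 95% interval of -0.73 to 0.87. LSK arrays 2 and 3, whose lead Mycn values of 4.91 and 4.22 lay above and within the range of the 4 healthy arrays, had Myc within the range of the other leukemia arrays. On no other array were the lead Mycn probe set and Myc both at or below 6.13.

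Against LSK leukemia the lead Mycn probe set was higher in DN2 leukemia by 4.56 ± 1.31 (adjusted p = 0.0127), and the difference of LSK minus GMP leukemia was -5.23 ± 1.31 (adjusted p = 0.0113). With those 2 arrays left out these were -0.95 (adjusted p = 0.0768) and 0.27 (adjusted p = 0.709), within 5.7e-10 to 0.0943 and 1.2e-09 to 0.709 over the alternatives. Mycn in DN2 minus GMP leukemia was then -0.67 ± 0.21. With all arrays this difference was not called (adjusted p = 0.711, within 0.0236 to 0.828 over the alternatives). The arrays left out were the ones with low values of this probe set, so these changes follow from that choice.

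A second Mycn probe set ran against the first. Probe set 1417155_PM_at read 2.90, 3.05, 2.92, 2.87 and 3.05 in DN2 leukemia and 2.87, 2.66, 2.88, 2.89 and 2.63 in GMP leukemia, against 8.03 and 8.60 in healthy DN2 cells and 3.58 and 3.09 in healthy GMP. It was therefore above background in healthy DN2 cells only, and all leukemia arrays, LSK included (3.12, 3.06 and 2.81), lay below 3.83. In DN2 leukemia it fell by 5.36 ± 0.18 (adjusted p = 1.4e-11), was -0.55 ± 0.18 in GMP leukemia (adjusted p = 0.0530), and the interaction of -4.81 ± 0.25 passed the test (adjusted p = 9.5e-09). Between the healthy groups it was higher in DN2 cells by 4.98 ± 0.21 (adjusted p = 7.1e-10), where the lead probe set differed by 0.09 ± 1.80 (adjusted p = 0.990). Across the 17 arrays the correlation of the 2 probe sets was -0.54, as a description. The third Mycn probe set (1425922_PM_a_at) stayed between 3.21 and 4.17 and in DN2 leukemia fell by 0.66 ± 0.14 (adjusted p = 0.00450). So the direction of Mycn in DN2 leukemia depended on the probe set, and which Mycn transcripts each one reads was not tested.

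**Figure D2:**
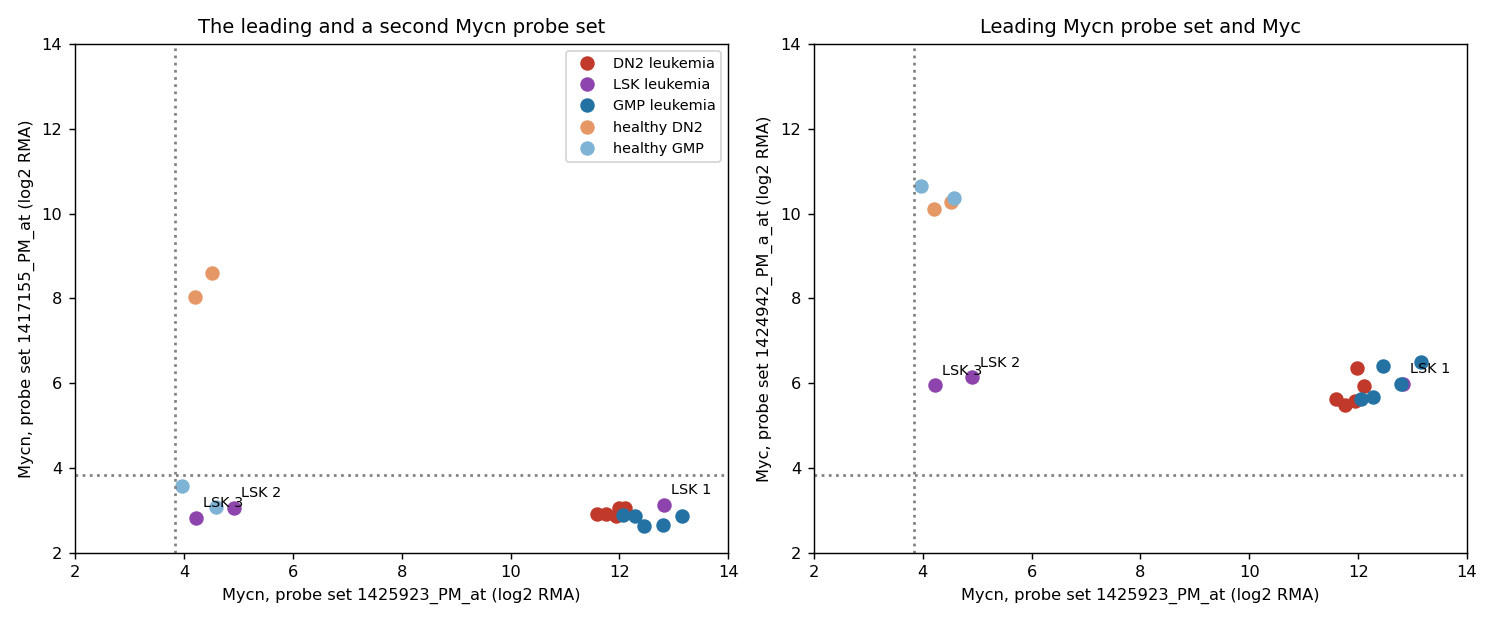
Left, the second Mycn probe set (y axis) against the lead Mycn probe set (x axis), and right, Myc (y axis) against the lead Mycn probe set, all in log2 RMA units with 1 point per array (colours are the 5 groups, dotted lines the median of all values, and LSK 1 to 3 the LSK leukemia arrays). The high lead signal of DN2 and GMP leukemia comes with a second probe set at or below 3.05 and Myc at or below 6.49, healthy DN2 cells show the reverse, and LSK arrays 2 and 3 are low on all 3.

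Bcl2, the other gene named in the transforming pair, had the second highest likeness to the lead Mycn probe set over the 17 arrays among genes outside the network (Pearson r = 0.965). Pvt1, a long non-coding RNA gene beside Myc, was first (0.966), followed by Zmat3, a p53 target (0.947), Crnde, another long non-coding RNA (0.941), and Lmna, which encodes lamins A and C (0.934). Pvt1 read 8.57 to 9.38 in DN2 leukemia, 8.43 to 9.44 in GMP leukemia and 7.92 on LSK array 1, against 4.41 and 4.83 on LSK arrays 2 and 3 and 4.77 to 5.45 in healthy cells. Pvt1 rose by 3.65 ± 0.65 in DN2 leukemia (adjusted p = 0.00107) and by 4.01 ± 0.65 in GMP leukemia (adjusted p = 0.000868). These genes were picked for likeness on the same arrays, so neither the correlations nor the differences of such genes are independent evidence. The part of transcripts from the delivered genes in the Mycn and Bcl2 signals was not tested.

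The genes most like Myc were Cd34, a progenitor surface protein (r = 0.987), Rab38, Rhobtb3, Khdrbs3 and Muc13. Cd34 read 2.51 to 3.39 over the 13 leukemia arrays, against 9.08 and 9.01 in healthy DN2 cells and 10.06 and 9.84 in healthy GMP. All 5 fell in both leukemias, and for Cd34 the difference was -6.31 ± 0.18 in DN2 (adjusted p = 4.0e-12) and -7.14 ± 0.18 in GMP (adjusted p = 5.8e-12). These genes were picked for likeness to Myc on the same arrays, so their fall follows from that choice and is not independent evidence. Mycl had 3 probe sets between 3.01 and 3.82 on every array, below 3.83 throughout, so none was tested.

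Over the lead probe sets of the 8 genes tested, 3 were called at an adjusted p under 0.05 in DN2 leukemia against healthy DN2 cells (Mycn higher, Myc and Mxd3 lower), where 21.8% of all lead probe sets were called. In GMP leukemia against healthy GMP, 5 were called (Mycn, Mxd1, Mxi1 and Mxd4 higher, Myc lower), where 18.8% of all were called. The median difference of the 8 was 0.58 in DN2 and 1.04 in GMP leukemia, against 0.01 and -0.12 over all lead probe sets. Over the 19 member probe sets, 7 were called in DN2 leukemia (2 higher and 5 lower, background 19.0%) and 9 in GMP leukemia (8 higher and 1 lower, background 15.3%). In the interaction 1 of the 19 was called, the second Mycn probe set (background 8.49%). Of the 8 lead probe sets, limma called 0 there, where 11.0% of all lead probe sets were called, and 2 of the 8 had an unadjusted p under 0.05.

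**Figure D3:**
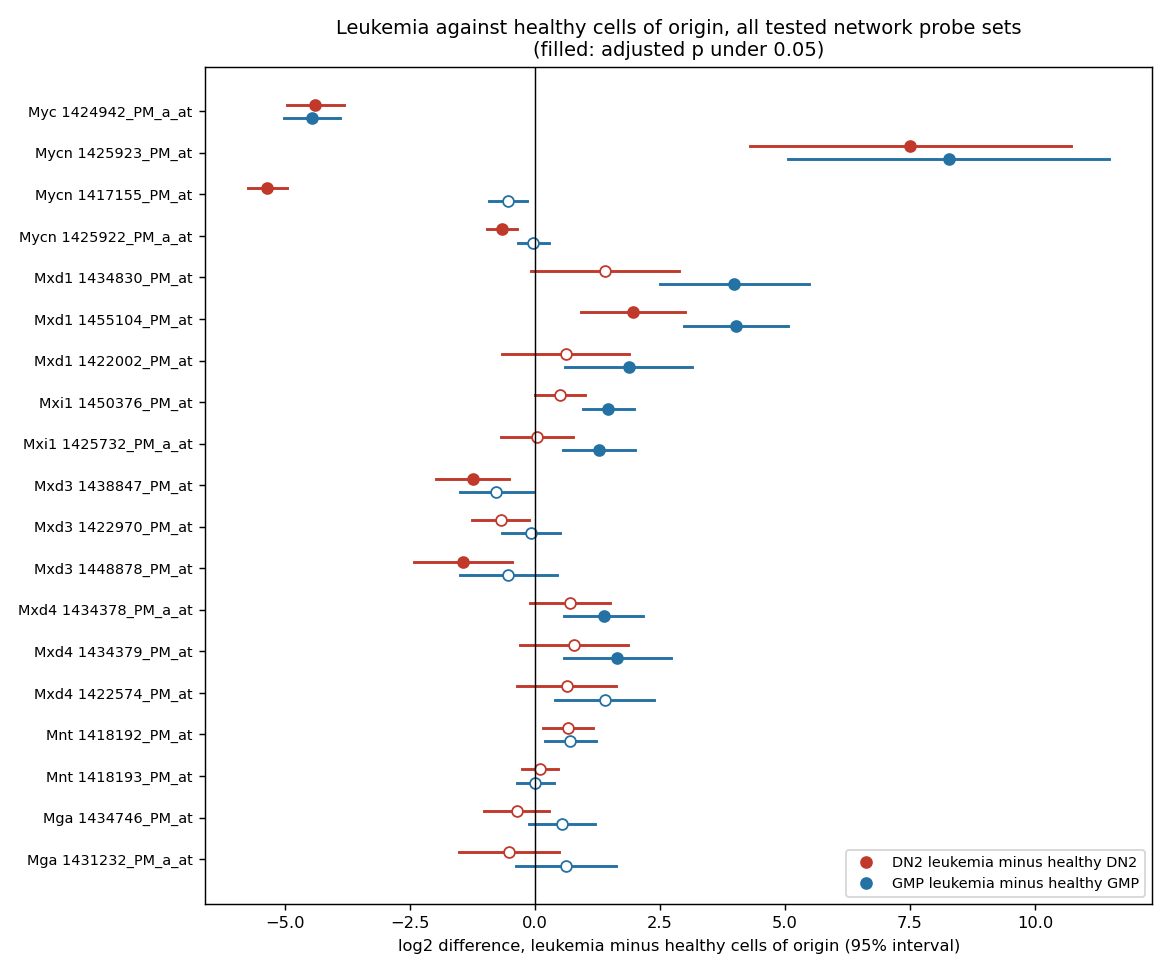
Log2 difference of leukemia minus healthy cells of origin (x axis, with 95% intervals) for the 19 tested network probe sets (y axis), for DN2 and for GMP (filled points have an adjusted p under 0.05). In GMP leukemia all 3 Mxd1 and both Mxi1 probe sets lie above 0 and are filled, while in DN2 leukemia 1 of the 3 Mxd1 and neither Mxi1 probe set is.

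Of the antagonists, Mxd1 had the widest range over the groups. The lead Mxd1 probe set (1434830_PM_at) read 8.57, 8.02, 8.30, 9.17 and 6.41 in DN2 leukemia, 10.84, 10.51 and 11.09 in LSK leukemia and 11.07, 8.79, 11.16, 9.55 and 11.32 in GMP leukemia. It read 6.96 and 6.43 in healthy DN2 cells and 6.27 and 6.51 in healthy GMP. LSK leukemia had the highest mean, GMP leukemia came next with a wider spread, DN2 leukemia was intermediate, and both healthy groups were lowest.

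Mxd1 rose in GMP leukemia against healthy GMP by 3.98 ± 0.70 (adjusted p = 0.00149), with no overlap. In DN2 leukemia the difference was 1.40 ± 0.70 (adjusted p = 0.193), and array 5 lay at the level of healthy cells. A second Mxd1 probe set (1455104_PM_at), at 8.45, 7.35, 7.16, 8.19 and 6.79 in DN2 leukemia against 5.99 and 5.26 in healthy DN2 cells, rose by 1.96 ± 0.48 (adjusted p = 0.0101). Its rise in GMP leukemia was 4.02 ± 0.48 (adjusted p = 6.3e-05), and the third probe set (1422002_PM_at) rose by 1.88 ± 0.59 (adjusted p = 0.0456).

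The interaction of the lead Mxd1 probe set was -2.58 ± 0.98, which did not pass the test over all probe sets (adjusted p = 0.133). Without GMP leukemia arrays 2 and 4, a choice made after the data were seen, the interaction was -3.39 and passed (adjusted p = 0.0104, with 0.00253 to 0.394 over the alternatives). Those arrays had the lowest Mxd1 of the GMP leukemias, so a larger difference follows from leaving them out. Between leukemias, Mxd1 was lower in DN2 than in GMP leukemia (-2.28 ± 0.53, adjusted p = 0.00365) and than in LSK leukemia (-2.72 ± 0.61, adjusted p = 0.00260). Without LSK arrays 2 and 3 the second of these was -2.75 and did not pass (adjusted p = 0.0602, within 0.000428 to 0.0602 over the alternatives). LSK and GMP leukemia differed by 0.44 ± 0.61 (adjusted p = 0.672, 95% interval -0.86 to 1.74).

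Within GMP leukemia, arrays 2 and 4 had the lowest Mxd1 and the highest primary granule genes. Late neutrophil genes on these arrays, at a mean of 11.78 and 11.42, were the lowest of the GMP leukemias, whose other arrays had 12.09, 12.73 and 12.35. Over the groups, Mxd1 was high where late neutrophil genes were high, in LSK and GMP leukemia. The 4 DN2 leukemia arrays with Mxd1 at 8.02 or more had those genes at 3.72 to 4.40, near the 3.64 and 3.83 of healthy DN2 cells. The part of cell maturity in the Mxd1 levels was not tested. The 5 genes most like Mxd1 were Cln3 (r = 0.960), a lysosomal membrane protein gene, Plekhm1, Vasp, Sh2d3c and Ppp2r5a. All 5 were called higher in GMP leukemia and 1 of them, Vasp, an actin regulator, in DN2 leukemia (1.25 ± 0.27, adjusted p = 0.00397). Being picked for likeness to Mxd1 on the same arrays, they are not independent evidence.

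**Figure D4:**
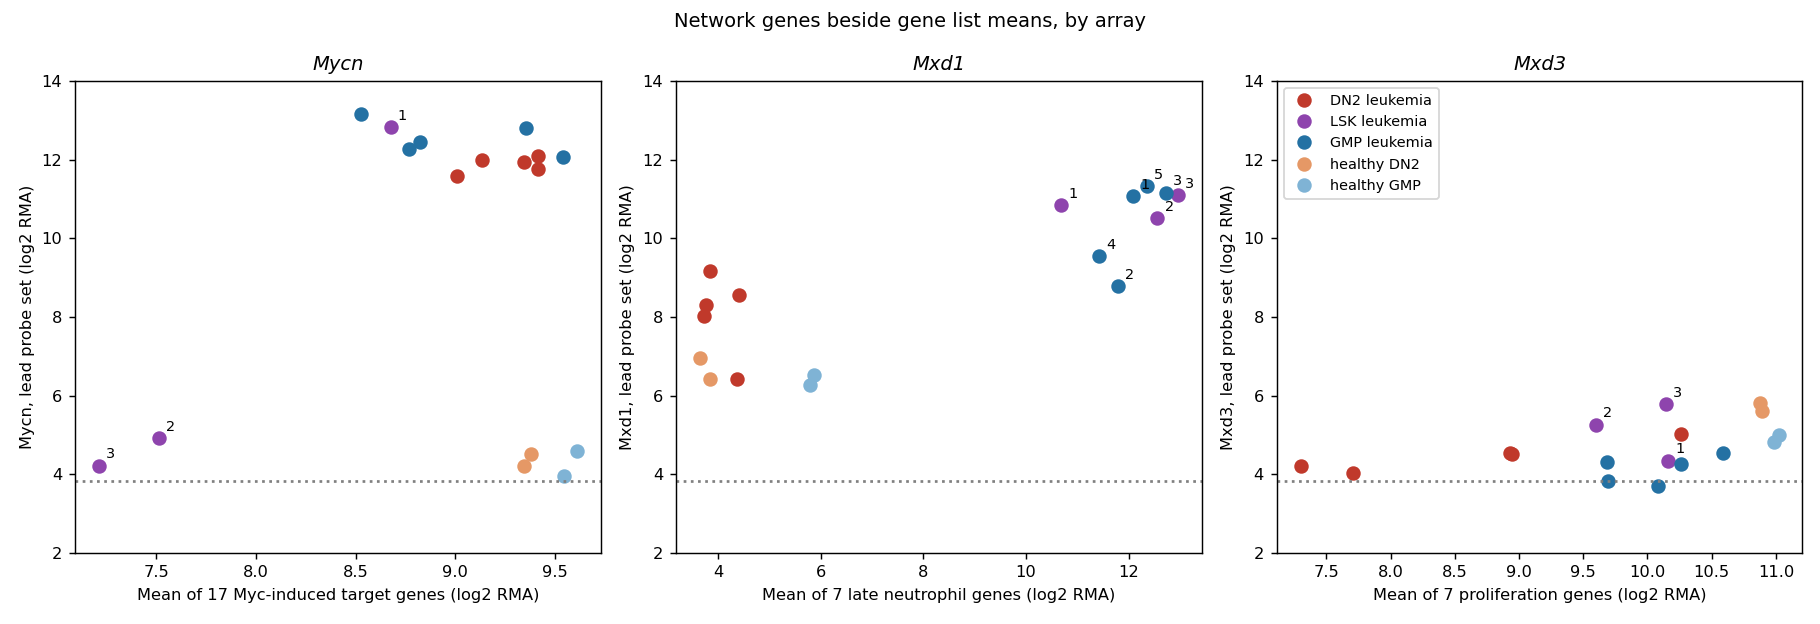
Lead probe sets of Mycn, Mxd1 and Mxd3 (y axes, log2 RMA) against the array means of 17 Myc-induced target genes, 7 late neutrophil genes and 7 proliferation genes (x axes, log2 RMA), with 1 point per array coloured by group (numbers are array numbers of LSK leukemia and, in the middle panel, also of GMP leukemia). LSK arrays 2 and 3 have the lowest target means of all 17 arrays, and GMP arrays 2 and 4 have the lowest Mxd1 of the LSK and GMP leukemia arrays.

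Mxi1, a second Mxd-type repressor, was lower in DN2 leukemia than in both other leukemias. Its lead probe set (1450376_PM_at) read 9.21, 8.79, 8.75, 8.95 and 9.67 in DN2 leukemia, 10.83, 10.50 and 10.45 in LSK leukemia and 11.06, 11.02, 11.21, 10.80 and 11.39 in GMP leukemia. Healthy DN2 cells read 8.66 and 8.49, and healthy GMP 9.46 and 9.80. On this probe set DN2 leukemia did not overlap LSK or GMP leukemia, and healthy DN2 cells did not overlap healthy GMP.

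Mxi1 was lower in DN2 than in GMP leukemia (-2.02 ± 0.18, adjusted p = 5.1e-07) and than in LSK leukemia (-1.52 ± 0.21, adjusted p = 5.4e-05). The origins already differed in that direction, with healthy DN2 cells lower than healthy GMP (-1.05 ± 0.28, adjusted p = 0.0317). That call was lost when any 1 of the 4 healthy arrays was left out (adjusted p = 0.0641 to 0.278). Against its cells of origin, Mxi1 rose in GMP leukemia by 1.47 ± 0.24 (adjusted p = 0.000798) and was 0.50 ± 0.24 in DN2 leukemia (adjusted p = 0.174). The interaction was -0.97 ± 0.33 (adjusted p = 0.0943). The second probe set (1425732_PM_a_at) gave -1.95 ± 0.25 between DN2 and GMP leukemia (adjusted p = 2.7e-05) and a rise of 1.28 ± 0.34 in GMP leukemia (adjusted p = 0.0199). In DN2 leukemia it differed by 0.04 ± 0.34 (adjusted p = 0.964). DN2 leukemia touched LSK leukemia on it, with DN2 array 5 and LSK array 1 both at 5.89.

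Mxd3, the Mxd member known to be expressed in dividing cells, was lower in DN2 leukemia than in healthy DN2 cells. In GMP leukemia no Mxd3 probe set was called. Its lead probe set (1438847_PM_at) read 4.51, 4.02, 5.02, 4.54 and 4.20 in DN2 leukemia, 4.35, 5.26 and 5.79 in LSK leukemia and 3.84, 4.31, 4.27, 4.54 and 3.71 in GMP leukemia. Healthy DN2 cells read 5.81 and 5.60, and healthy GMP 4.81 and 5.00. On this probe set each leukemia group with a healthy origin lay below it without overlap, and values near background understate differences.

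In DN2 leukemia Mxd3 fell by 1.25 ± 0.34 (adjusted p = 0.0183). The call was lost without healthy DN2 array 1 (adjusted p = 0.172) or 2 (adjusted p = 0.0965), within 5.4e-05 to 0.172 over the alternatives. In GMP leukemia the difference was -0.78 ± 0.34 (adjusted p = 0.135). The probe set 1448878_PM_at fell by 1.44 ± 0.46 in DN2 leukemia (adjusted p = 0.0397), and the third (1422970_PM_at) was at -0.69 ± 0.27 (adjusted p = 0.0937). In GMP leukemia they were at -0.53 ± 0.46 (adjusted p = 0.461) and -0.09 ± 0.27 (adjusted p = 0.871), and the third overlapped healthy GMP.

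Proliferation genes (7 genes) were lower beside it, with an array mean of 7.30 to 10.26 in DN2 leukemia and 9.69 to 10.59 in GMP leukemia, against 10.88 to 10.89 in healthy DN2 cells and 10.99 to 11.02 in healthy GMP. Of these, 6 of 7 fell in DN2 leukemia and 1 of 7 in GMP leukemia, where 21.8% and 18.8% of all lead probe sets were called, and their part in the Mxd3 difference was not tested. LSK leukemia had more Mxd3 than GMP leukemia by 1.00 ± 0.30 (adjusted p = 0.0268), which rested on LSK arrays 2 and 3, since without both it was 0.21 (adjusted p = 0.783, with 0.000742 to 0.783 over the alternatives). The genes most like Mxd3 were Plekho1 (r = 0.906), 9930012K11Rik, Ly6e, Neurl1b and Casp8, an initiator caspase, and all 5 fell in DN2 leukemia. Picked for likeness to Mxd3 on the same arrays, they are not independent evidence.

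Mxd4, an Mxd member linked to resting and mature cells, was higher in both leukemias than in the cells of origin on every array of its lead probe set (1434378_PM_a_at). It read 10.45, 10.31, 10.78, 10.41 and 10.39 in DN2 leukemia against 9.83 and 9.72 in healthy DN2 cells. It read 10.86, 10.69, 10.92, 10.08 and 11.05 in GMP leukemia against 9.42 and 9.28 in healthy GMP. The rise passed the test in GMP leukemia (1.37 ± 0.37, adjusted p = 0.0236) and not in DN2 leukemia (0.69 ± 0.37, adjusted p = 0.233), and the interaction was -0.68 ± 0.53 (adjusted p = 0.509).

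The GMP call was lost without healthy GMP array 1 (adjusted p = 0.129) or 2 (adjusted p = 0.186), or without GMP leukemia array 5 (adjusted p = 0.0502), within 0.000101 to 0.186 over the alternatives. The DN2 difference passed when only the 2 groups compared were fitted (adjusted p = 0.0207) or without LSK arrays 2 and 3 (adjusted p = 0.0470), within 0.00616 to 0.576 over the alternatives. In LSK leukemia Mxd4 read 10.26, 8.30 and 9.20, with array 1 near the other leukemias and arrays 2 and 3 below them. Mxd4 was higher in DN2 than in LSK leukemia by 1.21 ± 0.33 (adjusted p = 0.00855) and lower in LSK than in GMP leukemia (-1.46 ± 0.33, adjusted p = 0.0057). Without LSK arrays 2 and 3 these were 0.20 (adjusted p = 0.682, the highest of its alternatives, from 2.0e-05) and -0.45 (adjusted p = 0.383, the highest, from 1.1e-05). The probe set 1434379_PM_at also rose in GMP leukemia, by 1.65 ± 0.50 (adjusted p = 0.0392), and was at 0.78 ± 0.50 in DN2 leukemia (adjusted p = 0.33). On 1422574_PM_at the difference was 1.39 ± 0.46 in GMP leukemia (limma, adjusted p = 0.0549) and 0.63 ± 0.46 in DN2 leukemia (adjusted p = 0.404). There DN2 leukemia overlapped healthy DN2 cells. The last Mxd4 probe set (1422575_PM_at) had every group mean below 3.83 and was not tested.

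Mnt, the most widely expressed Myc antagonist, showed small differences. The lead probe set (1418192_PM_at) read 9.74, 9.71, 9.26, 9.68 and 9.64 in DN2 leukemia against 9.18 and 8.71 in healthy DN2 cells. It read 9.82, 9.25, 8.89, 8.94 and 9.29 in GMP leukemia against 8.59 and 8.48 in healthy GMP, and 9.59, 9.42 and 9.13 in LSK leukemia. Neither leukemia overlapped its cells of origin, and neither difference passed the test.

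For Mnt the difference was 0.66 ± 0.24 in DN2 (adjusted p = 0.0676) and 0.71 ± 0.24 in GMP (adjusted p = 0.0579). With 1 probe set per gene the GMP difference passed (adjusted p = 0.0463, within 0.0104 to 0.305 over 29 alternatives, of which 7 passed). With only the 2 groups compared the DN2 difference passed (adjusted p = 0.0471, within 0.00290 to 0.526, of which 5 passed). The second Mnt probe set (1418193_PM_at) read 3.61 to 4.29 on all arrays, near background, and differed by 0.10 ± 0.17 in DN2 (adjusted p = 0.751) and 0.01 ± 0.17 in GMP leukemia (adjusted p = 0.982).

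Mga, the large repressor that joins Max to the Polycomb complex PRC1.6, had its lowest group mean in LSK leukemia. Its lead probe set (1434746_PM_at) read 7.70, 8.27, 7.88, 8.27 and 7.25 in DN2 leukemia, 7.27, 6.70 and 6.83 in LSK leukemia and 7.99, 7.51, 7.75, 7.35 and 8.32 in GMP leukemia. Healthy DN2 cells read 8.24 and 8.24, and healthy GMP 7.57 and 6.92. On this probe set LSK leukemia lay below GMP leukemia without overlap and touched the DN2 leukemias on 1 array. The second Mga probe set (1431232_PM_a_at) read 7.32, 5.52 and 6.21 in LSK leukemia. There LSK array 1 lay inside the ranges of DN2 (6.28 to 7.65) and GMP leukemia (6.59 to 8.13).

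Mga was higher in DN2 than in LSK leukemia by 0.94 ± 0.27 (adjusted p = 0.0115) and lower in LSK than in GMP leukemia (-0.85 ± 0.27, adjusted p = 0.0349). Neither passed without LSK arrays 2 and 3, at 0.61 (adjusted p = 0.315, within 0.000507 to 0.315 over the alternatives) and -0.52 (adjusted p = 0.485, within 0.00272 to 0.485). The first of these was also lost without LSK array 2 alone (adjusted p = 0.0575). The second was lost without LSK array 2 (adjusted p = 0.150) or 3 (adjusted p = 0.105), or without GMP leukemia array 1 (adjusted p = 0.0572), 3 (adjusted p = 0.0530) or 5 (adjusted p = 0.0716). It was also lost without DN2 leukemia arrays 1 and 3 (adjusted p = 0.0535), with only the 2 groups compared (adjusted p = 0.0728) and with the replicate number as a block (adjusted p = 0.0859), so it passed under 20 of 29 alternatives. Against healthy cells, Mga was at -0.37 ± 0.31 in DN2 leukemia (adjusted p = 0.474) and at 0.54 ± 0.31 in GMP leukemia (adjusted p = 0.251).

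The PRC1.6 partners of Mga (6 genes, all tested) were tested beside it. Against LSK leukemia, 4 of 6 were higher in DN2 leukemia with a median difference of 1.16, and 3 of 6 were lower in LSK than in GMP leukemia with a median of -0.51. Over all lead probe sets, 45.9% were called with a median of 0.11 between DN2 and LSK leukemia, and 24.9% with a median of -0.06 between LSK and GMP leukemia. Pcgf6, the subunit that defines this complex, read 8.90, 9.58, 9.27, 9.54 and 9.15 in DN2 leukemia, 6.21, 3.80 and 4.35 in LSK leukemia and 7.67, 8.51, 7.25, 8.40 and 7.46 in GMP leukemia. It was higher in DN2 than in LSK leukemia by 4.50 ± 0.43 and lower in LSK than in GMP leukemia (-3.07 ± 0.43). When LSK arrays 2 and 3 were left out, which leaves 1 LSK array and a spread taken from the other groups, 5 of 6 partners were higher in DN2 than in LSK leukemia and 2 of 6 were lower in LSK than in GMP leukemia. The share over all lead probe sets was then 25.8% and 11.4%. Against healthy cells 1 of 6 fell in DN2 leukemia, Cbx3 (-0.57 ± 0.17, adjusted p = 0.0292), and 1 of 6 in GMP leukemia, E2f6 (-1.12 ± 0.35, adjusted p = 0.0446), where 21.8% and 18.8% of all lead probe sets were called. For each origin 3 of 6 had an unadjusted p under 0.05. With GMP leukemia arrays 2 and 4 left out, 4 of 6 were lower in GMP leukemia (median -0.78), where 33.8% of all lead probe sets were called.

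Between leukemia groups, 2 of the 8 lead probe sets were called between DN2 and GMP leukemia, Mxd1 and Mxi1, both lower in DN2, where 38.1% of all lead probe sets and 32.4% of all probe sets were called. Between DN2 and LSK leukemia 5 were called (Mycn, Mxd4 and Mga higher, Mxd1 and Mxi1 lower, background 45.9%, or 39.7% of all probe sets). Between LSK and GMP leukemia 4 were called (Mxd3 higher, Mycn, Mxd4 and Mga lower, background 24.9%, or 20.9% of all probe sets). Without LSK arrays 2 and 3 the LSK group is 1 array, assumed to vary like the other groups, and the last 2 counts became 1 (Mxi1) and 0. The share over all lead probe sets was then 25.8% for DN2 against LSK and 11.4% for LSK against GMP leukemia, and 3 and 0 of the 8 had an unadjusted p under 0.05 (limma). Between the healthy groups 1 was called, Mxi1 (background 10.2%, or 8.23% of all probe sets).

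Of 20 listed targets that Myc is known to induce, 17 were tested, and Hspd1, Gnl3 and Mybbp1a were not analysed here. The probe sets of Ncl and Eif4e read near background, where a rise is compressed. Of the 17, 0 were higher and 1 lower in DN2 leukemia than in healthy DN2 cells, Cdk4, a cell cycle kinase (-1.16 ± 0.35, adjusted p = 0.0329), and the median difference was -0.01, where 21.8% of all lead probe sets were called. In GMP leukemia 0 were higher and 1 lower, Ccnd2, a G1 cyclin (-3.95 ± 1.04, adjusted p = 0.0201), with a median of -0.43 against -0.12 over all lead probe sets, of which 18.8% were called. That count was 4 lower without LSK arrays 2 and 3, where 21.3% of all lead probe sets were called, and 5 lower without GMP leukemia arrays 2 and 4, where 33.8% were. The array mean of the list was 9.01 to 9.42 in DN2 leukemia and 8.53 to 9.54 in GMP leukemia, against 9.34 to 9.38 in healthy DN2 cells and 9.54 to 9.61 in healthy GMP. At an unadjusted p under 0.05, 1 of 17 differed in DN2 and 6 of 17 in GMP leukemia.

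The array means of these targets were 8.67, 7.51 and 7.21 in LSK leukemia, lowest on the 2 arrays with both Mycn and Myc at or below 6.13. Between DN2 and LSK leukemia 13 of 17 were higher and 1 lower, with a median difference of 1.48, where 45.9% of all lead probe sets were called and their median was 0.11. Between LSK and GMP leukemia 13 of 17 were lower, with a median of -1.20, where 24.9% of all were called and their median was -0.06. Cad, which starts pyrimidine synthesis, read 7.87, 4.95 and 5.48 in LSK leukemia, against 8.69, 9.16, 8.81, 9.04 and 8.94 in GMP leukemia (-2.83 ± 0.46, adjusted p = 0.000735). Srm, a polyamine enzyme, read 10.00, 6.87 and 6.47 in LSK leukemia, against 10.21, 11.20, 10.71, 11.48 and 11.00 in GMP leukemia (-3.14 ± 0.59, adjusted p = 0.0020). Without LSK arrays 2 and 3, the counts became 1 of 17 higher in DN2 than in LSK leukemia (median 0.56) and 1 of 17 lower in LSK than in GMP leukemia (median -0.34). Of all lead probe sets, 25.8% were then called with a median of 0.15 between DN2 and LSK leukemia, and 11.4% with a median of -0.12 between LSK and GMP leukemia. Monocyte markers (3 genes) were also higher on these arrays, at a mean of 10.61 and 10.90, against 7.61 on LSK array 1, and their part in these differences was not tested.

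Of the 5 targets that Myc is known to repress, Cdkn1a, the p53-induced inhibitor of cyclin-dependent kinases, rose in GMP leukemia by 3.28 ± 0.87 (adjusted p = 0.0201). It read 11.03, 10.46, 11.22, 11.25 and 12.00 there, against 8.27 and 7.54 in healthy GMP. The DN2 difference of Cdkn1a was -2.58 ± 0.87 (adjusted p = 0.0501), and its interaction of -5.87 ± 1.22 passed (adjusted p = 0.00672). With all arrays, limma called 0 of 5 in DN2 leukemia (2 at an unadjusted p under 0.05) and 1 of 5 in GMP leukemia, where 21.8% and 18.8% of all lead probe sets were called. GMP leukemia arrays 2 and 4 were also left out, a choice made after the data were seen. Then 3 of 5 were higher in GMP leukemia (Cdkn1a, Cdkn1b and Cdkn2b) and 1 of 5 in DN2 leukemia (Cdkn1b). Of all lead probe sets, 33.8% and 24.3% were called there. With LSK arrays 2 and 3 left out, Cdkn1a and Ndrg1 were lower in DN2 leukemia, where 24.0% of all were called. Between DN2 and GMP leukemia 1 of 5 was higher in DN2, Cdkn1b (2.51 ± 0.64, adjusted p = 0.0069), and 3 were lower, Cdkn1a (-4.51 ± 0.65), Gadd45a (-1.998 ± 0.335) and Ndrg1 (-1.51 ± 0.51, adjusted p = 0.0335), where 38.1% of all lead probe sets were called. Cdkn1b read 9.14, 5.81, 8.97, 6.08 and 9.39 in GMP leukemia, and without arrays 2 and 4 its difference was 1.22 ± 0.30 (adjusted p = 0.00722). Those arrays held its low values, so a higher GMP leukemia mean and a smaller spread follow from leaving them out.

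Partners of the network were compared with healthy cells, where 21.8% of all lead probe sets were called in DN2 and 18.8% in GMP leukemia. Of the 7 tested cofactors of Myc, 0 were called by limma in DN2 or GMP leukemia, and 0 had an unadjusted p under 0.05 in either. Of the 5 corepressor genes of the Mxd proteins and Mnt, Hdac2, a histone deacetylase, fell in DN2 leukemia (-1.14 ± 0.27, adjusted p = 0.00777) and 0 were called in GMP leukemia (1 at an unadjusted p under 0.05). Of the Mlx arm, in which Mlx takes the place of Max, Mlxip was higher in DN2 leukemia by 1.08 ± 0.30 (adjusted p = 0.0201), and 0 of the 3 genes were called in GMP leukemia (1 at an unadjusted p under 0.05).

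Of 8 genes for Myc turnover, 1 rose and 2 fell in DN2 leukemia and 0 were called in GMP leukemia by limma (1 at an unadjusted p under 0.05), where 21.8% and 18.8% of all lead probe sets were called. Usp28, a deubiquitinase that stabilises Myc in human cells, read 7.98, 9.22, 7.48, 8.49 and 8.03 in DN2 leukemia, against 6.95 and 6.92 in healthy DN2 cells (1.31 ± 0.35, adjusted p = 0.0170). Skp2, a ubiquitin ligase subunit, fell by 2.88 ± 0.71 (adjusted p = 0.0101) and Aurka, a mitotic kinase, fell by 2.40 ± 0.49 (adjusted p = 0.00306), beside the lower proliferation genes of that group. Between DN2 and GMP leukemia 3 of 8 were higher in DN2 and 2 lower, where 38.1% of all lead probe sets were called. Usp28 was higher in DN2 than in GMP leukemia by 1.90 ± 0.27 (adjusted p = 5.7e-05) and than in LSK leukemia by 2.17 ± 0.31. Fbxw7, the ligase that marks Myc for degradation, was higher in DN2 than in GMP leukemia by 1.23 ± 0.22 (adjusted p = 0.000425), as was Huwe1, another ubiquitin ligase, by 0.73 ± 0.18 (adjusted p = 0.00704). Aurka (-1.97 ± 0.37, adjusted p = 0.000847) and Skp2 (-1.75 ± 0.54, adjusted p = 0.0212) were lower, and Skp2 was not called without GMP leukemia arrays 2 and 4 (-1.26 ± 0.57, adjusted p = 0.109).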

How the data were processed

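The authors deposited log2 expression values per probe set for 17 arrays, made from 300 ng of total RNA with an Affymetrix 3' IVT kit and processed with RMA in affy, per the submitters' processing notes and the labels' protocols. The sources used here do not state whether all arrays were normalised together. The deposited log2 values were used as they stood. Of 45141 probe sets, 104 controls were left out. The platform annotation gave 28898 probe sets 1 symbol, 551 several and 15588 none, and 28689 matched RefSeq genes (GRCm38.p6). Tests covered the 26746 probe sets with a group mean above 3.83, the median of the whole table.

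All 5 groups entered 1 limma fit (limma 3.58.1, R 4.3.3) with no covariate, and p-values were adjusted over all tested probe sets by Benjamini-Hochberg, with calls at 0.05. Intervals are 95%. The members and gene lists were chosen with earlier results of these data known. Named genes were the members, the lists' leading called genes by size and the 5 genes most correlated with Myc, Mycn, Mxd1 and Mxd3. On simulated data with 200 probe sets changed by 2 (log2), the fit recovered 81.5% for DN2 leukemia against healthy DN2 cells, 78.5% for GMP leukemia against healthy GMP, 60% for the interaction, 65.5% between the healthy groups and 84.5% to 87% between leukemias. The simulated noise was normal and independent, with 1 spread per probe set for all groups and no outlying arrays. These rates therefore need not hold for the data here. The number of arrays limits the precision, most of all the 2 arrays of each healthy group. The alternatives were no or a stricter filter, 1 probe set per gene, quantile normalisation, median centring, an intensity trend, array weights, a fit of only the groups compared, the replicate number as a block, other probe sets, and arrays left out. Deviations of same-numbered arrays of different groups from their group means had correlations of -0.18 to 0.30, with 9 of 25 over 0.1. These were not compared with arrays of different numbers, so whether the numbers pair the arrays is not settled.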

Additional observations from a re-analysis of the deposited data

Results flagged for a closer look

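Mnt on DN2 leukemia array 3 (lead probe set) lay apart from the other arrays of its group, at 9.26 against 9.64 to 9.74 on the other 4. The gap was 0.809 of the group's range, above the critical value for a group of 5. In all 18 groups of values were tested, and chance flags about 1 in 20.

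The second Mycn probe set (1417155_PM_at) differed between origins in how leukemia compared with healthy cells, with an interaction of -4.81 ± 0.25 (limma, adjusted p = 9.5e-09). Its leukemia minus healthy difference was -5.36 in DN2 and -0.55 in GMP. Only healthy DN2 cells, at a mean of 8.32, were above background on this probe set. Healthy GMP averaged 3.33, below 3.83, so a fall in GMP leukemia had little room to show.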

How the results depend on the processing

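Over 29 alternatives each, other probe sets of the gene apart, Myc and the lead Mycn probe set kept their direction and call in DN2 and GMP leukemia against healthy cells, as did Mxd1 and Mxi1 in GMP leukemia and between DN2 and GMP leukemia. Of 1624 such alternatives for single genes, 1514 kept direction and side of the threshold, 42 gained a call, 36 lost one and 32 turned direction. The cause of each change was not tested, apart from fewer probe sets or arrays where these were removed.

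Array weights moved the called member genes to 7 in DN2 leukemia against healthy DN2, 8 in GMP leukemia against healthy GMP, 3 between healthy groups and 4 in the interaction. Calls over all probe sets rose in the same comparisons, as given below. Fitting only the groups compared gave 5, 4 and 0 for DN2 leukemia against healthy DN2, the healthy groups and LSK against GMP leukemia. Leaving out LSK arrays 2 and 3 gave 1 for DN2 against LSK and 0 for LSK against GMP leukemia, and leaving out GMP arrays 2 and 4, chosen after seeing the data, gave 1 in the interaction. Probe sets called with 1 probe set per gene numbered 4628 (DN2 against GMP leukemia), 2695 (DN2 leukemia against healthy), 5515 (DN2 against LSK), 2463 (GMP leukemia against healthy), 1302 (healthy groups), 1473 (interaction) and 3108 (LSK against GMP), against 8656, 5087, 10621, 4103, 2200, 2271 and 5595 with all. Of the 26746 probe sets tested, array weights gave 11990 (DN2 leukemia against healthy), 11395 (GMP leukemia against healthy), 10352 (healthy groups), 8871 (interaction) and 8799 (LSK against GMP). Only the groups compared gave 2431 (GMP leukemia against healthy), 10040 (healthy groups) and 2574 (LSK against GMP). Without LSK arrays 2 and 3 there were 6061 (DN2 against LSK) and 2799 (LSK against GMP), and without GMP arrays 2 and 4 there were 8038 (GMP leukemia against healthy) and 4136 (interaction).

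Leaving out 1 array at a time gave 2 to 3 member genes (DN2 against GMP leukemia), 2 to 4 (DN2 leukemia against healthy), 2 to 6 (DN2 against LSK), 4 to 6 (GMP leukemia against healthy), 0 to 1 (healthy groups), 0 to 1 (interaction) and 1 to 5 (LSK against GMP). The probe sets called ran, in the same order, over 7542 to 9617, 2214 to 5884, 8512 to 11049, 1251 to 6327, 965 to 2823, 1178 to 2910 and 3065 to 6750. Directions turned within Mga DN2 minus GMP leukemia (-0.017 to 0.25), the interactions of Mnt (-0.28 to 0.19) and Myc (-0.073 to 0.21), Myc LSK minus GMP leukemia (-0.12 to 0.088) and Mycn between healthy groups (-0.22 to 0.40).

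Other reversals were of differences that mostly did not pass the test. Without GMP arrays 2 and 4, Mga DN2 minus GMP leukemia was -0.14, Mxd1 LSK minus GMP -0.37 and the Myc interaction -0.084. Without LSK arrays 2 and 3, Mycn turned to -0.95 (DN2 minus LSK) and 0.27 (LSK minus GMP), and Mxd3 DN2 minus LSK to 0.11. With array weights the Mnt interaction was 0.061, Mxd1 LSK minus GMP -0.11, the Myc interaction -0.0033 and Myc LSK minus GMP 0.035. Quantile normalisation gave -0.018 for the Myc interaction, 0.018 for Myc LSK minus GMP and -0.020 for Mycn between healthy groups, and the Mnt interaction was 0.025 without DN2 leukemia arrays 1 and 3. Other probe sets turned Mnt (-0.10 DN2 minus GMP, -0.16 DN2 minus LSK, -0.20 healthy, 0.094 interaction), Mxd1 (-0.39 and -0.12 healthy), Mxd4 (-0.083 healthy) and Mga (-0.14, DN2 minus GMP). Mycn turned with 1417155_PM_at (0.17, -5.36, -0.040, -0.55 and 0.21) and with 1425922_PM_a_at (0.039, -0.66, -0.086, -0.035 and 0.12), for DN2 minus GMP leukemia, DN2 leukemia minus healthy, DN2 minus LSK, GMP leukemia minus healthy and LSK minus GMP.

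Whether the replicate numbers pair the arrays is not settled. With them as a block, Mnt passed in DN2 (0.85, adjusted p = 0.0101) and GMP leukemia (0.89, adjusted p = 0.0104), as did Mxd3 in GMP leukemia (-0.96, adjusted p = 0.0475), Mga LSK minus GMP did not (-0.87, adjusted p = 0.0859), and Myc LSK minus GMP was 0.030. No count moved by over 1.5 times. Signals near background limit Mycl, Mxd3 and the second Mnt probe set.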
